A study of Mus musculus with 16 samples.

Results

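The nuclear genes of oxidative phosphorylation were followed by complex in splenic myeloid-derived suppressor cells (MDSCs) of tumor-bearing mice. Rows were taken whose symbol starts with Nduf, Uqcr, Atp5, Cox4, Cox5, Cox6, Cox7 or Cox8, together with Sdha, Sdhb, Sdhc, Sdhd, Cyc1 and Cycs. Of 24421 gene symbols, 94 met this rule, and 83 of them held at least 10 counts in at least 8 of the 16 libraries and were kept. The 83 comprised 41 genes of complex I, 4 of complex II, 9 of complex III, 13 of complex IV, 15 of complex V and Cycs. Among them were 74 subunits, while 6 complex I genes are assembly factors (Atp5sl counted among these), Cox7a2l assembles supercomplexes and Cox6b2 is a testis isoform. The remaining 11 rows are given by their counts at the end. The rule used symbols and count minimums only, without group labels. The libraries of a single subset can meet the count minimum alone, and Cox6b2, Ndufaf1 and Ndufaf5 met it mainly through the M-MDSCs defined below. A lower level of these genes in the other subset was therefore in part fixed by the rule.

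Oxidative phosphorylation takes place in the inner mitochondrial membrane. Complexes I and II pass electrons from NADH and succinate to ubiquinone, complex III hands them to cytochrome c, and complex IV delivers them to oxygen, while complexes I, III and IV pump the protons that drive ATP synthesis by complex V. Complex II is also an enzyme of the tricarboxylic acid cycle. The catalytic center of complex IV and parts of complexes I, III and V are encoded by mitochondrial DNA, and 0 symbols of mitochondrial transcripts were among the rows, so all values below concern the nuclear-encoded share. In neutrophils, whose energy supply is largely glycolytic, mitochondria are sparse, whereas monocytes hold more of them.

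The mRNA of M-MDSCs (CD11b high, Ly6C+ Ly6G-) and G-MDSCs (CD11b high, Ly6C- Ly6G+) sorted from spleen was sequenced from 4 WT and 4 Nlrp3-/- mice, which gave 4 groups of 4 libraries. All mice carried transplanted B16.F10 melanoma, a C57BL/6 tumor line, and there was no tumor-free group. In the Nlrp3-/- mice, on a C57BL/6 background, an EGFP cassette is fused in frame to the start codon of Nlrp3 in every cell of the body, so a difference between genotypes need not arise in the MDSCs themselves. Per the methods the mice were 42 to 84 days old and matched for age and sex, and every library came from 1 mouse, with both subsets of each mouse sequenced. The comparisons ask how the nuclear-encoded respiratory chain differs between genotypes within a subset and between subsets within a genotype.

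Libraries held 2295967 to 6079866 counts. Nlrp3 had 219 to 632 counts in WT and 4 to 11 in Nlrp3-/- M-MDSCs, and 744 to 1365 and 21 to 59 in the respective G-MDSCs. All 7 monocyte markers were lower in G-MDSCs and all 9 neutrophil markers with a row were higher, in both genotypes. The neutrophil markers summed to 8727 CPM (counts scaled to a common library size with TMM factors) in replicate 2 of the WT M-MDSCs and to between 1415 and 2537 CPM in the other 7 M-MDSC libraries. In Nlrp3-/- cells, red pulp macrophage markers (C1qa, C1qb, C1qc, Vcam1, Spic, Hmox1 and Adgre1) summed to 241 to 361 CPM against 143 to 154 CPM in WT M-MDSCs, and to 417 to 585 against 156 to 253 CPM in G-MDSCs. They passed the test as higher for 4 of 7 and 5 of 7 genes, and the dendritic cell list did for 2 of 4 tested (H2-Aa and H2-Eb1) and 3 of 3 tested genes. Of all genes tested between genotypes, 3.51% and 4.70% passed as higher and 7.10% and 11.7% as lower, in M-MDSCs and G-MDSCs. The dendritic cell list summed to 1214 to 1989 CPM in Nlrp3-/- and 770 to 1159 CPM in WT M-MDSCs. Between genotypes, 0 of 7 and 1 of 6 tested monocyte markers were called (the 1 higher), 2 higher of 8 and 1 lower of 9 neutrophil markers, 1 lower of 4 and 1 lower of 5 B cell markers, 0 of 7 and 0 of 6 T and NK cell markers, 1 higher of 2 and 0 of 2 eosinophil and basophil markers, and 0 of 4 and 0 of 4 erythroid markers, in M-MDSCs and G-MDSCs. The globin genes Hba-a1, Hba-a2, Hbb-bs and Hbb-bt had 0 counts in all libraries. These marker levels move with genotype, as do the levels described below, and their part in the results was not tested.

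Summed over the 83 genes, transcripts of oxidative phosphorylation took 0.9001% to 1.11% of the counts of WT M-MDSCs, 1.08% to 1.45% of Nlrp3-/- M-MDSCs, 0.375% to 0.447% of WT G-MDSCs and 0.560% to 0.632% of Nlrp3-/- G-MDSCs. In TMM-scaled CPM, the sums were 8887, 7510.3, 8343 and 7688 in the 4 WT M-MDSC libraries and 9602, 8077, 11052 and 10130.5 in the Nlrp3-/- ones, with overlapping ranges. They were 5468, 5199, 5888 and 5354 in WT G-MDSCs and 7863, 7649, 7749 and 7767 in Nlrp3-/- G-MDSCs, so every Nlrp3-/- library lay above every WT library in this subset. The ratio of the Nlrp3-/- to the WT mean was 1.20 in M-MDSCs and 1.42 in G-MDSCs. Between subsets, the ratio of G-MDSCs to M-MDSCs was 0.676 in WT and 0.798 in Nlrp3-/- mice, and within single mice it ran from 0.615 to 0.706 and from 0.701 to 0.947. In bulk RNA, fewer cells of a type and less RNA per cell cannot be told apart.

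The 5 complexes moved in the same direction as the total but by different amounts. In G-MDSCs the ratio of Nlrp3-/- to WT means was 1.41 for complex I, 1.37 for complex II, 1.47 for complex III, 1.47 for complex IV and 1.34 for complex V, and in each of the 5 the 4 libraries of a genotype did not overlap those of the other. In M-MDSCs the same ratios were 1.20, 1.30, 1.32, 1.19 and 1.14, and the libraries overlapped in all 5. The ratio of G-MDSCs to M-MDSCs was lowest in complex V, at 0.600 in WT and 0.703 in Nlrp3-/- mice, and highest in complex II in WT (0.789) and in complex IV in Nlrp3-/- mice (0.971). Complex IV summed to 2282, 2222, 2224 and 2227 CPM in Nlrp3-/- G-MDSCs and to 2376, 1884, 2563 and 2400.3 CPM in Nlrp3-/- M-MDSCs, which overlapped. Sums weight each gene by its counts, so highly counted genes weigh most in them.

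**Figure D1:**
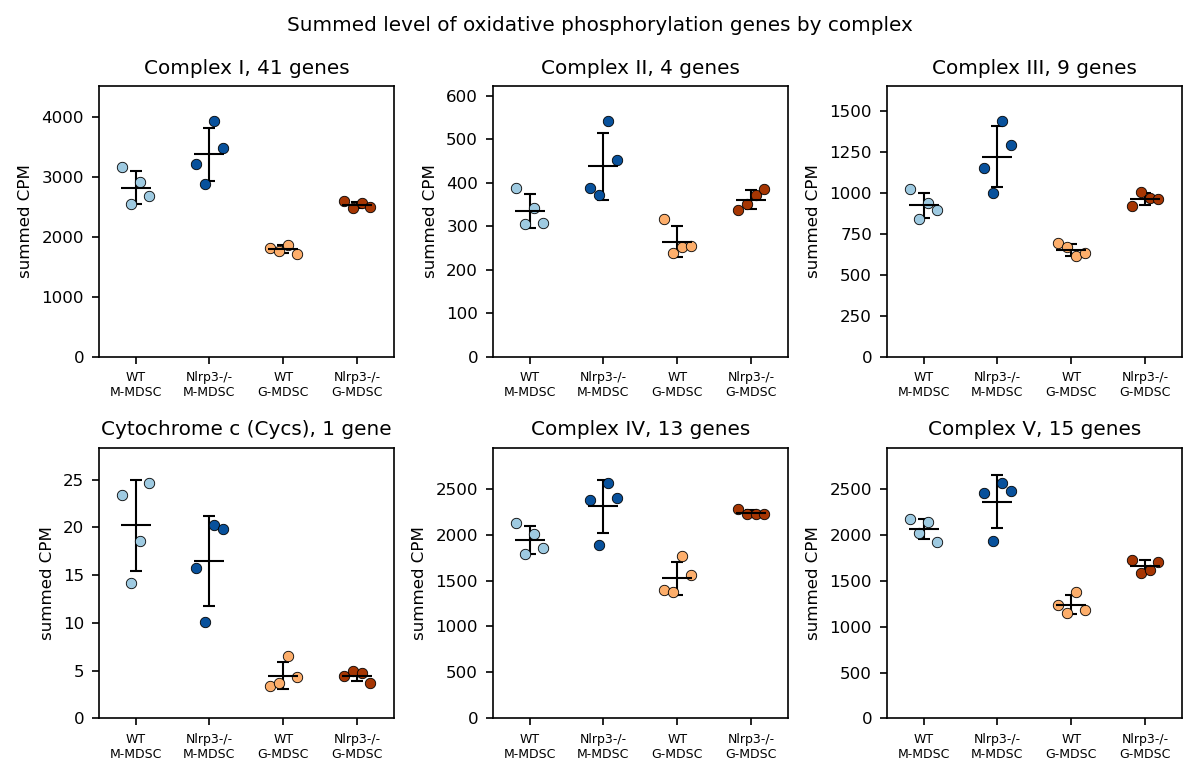
Summed TMM-scaled CPM of the kept genes of each complex and of Cycs (vertical axes, from 0) in the 4 groups. Each point is 1 library (n = 4 mice a group), bars are the mean and SD. In all 5 complexes the 4 Nlrp3-/- G-MDSC libraries lie above the 4 WT G-MDSC libraries, while the M-MDSC libraries of the genotypes overlap.

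The comparison of Nlrp3-/- with WT M-MDSCs called 3 of 83 genes higher and 0 lower by edgeR's quasi-likelihood test (Benjamini-Hochberg FDR under 0.05 over all genes tested and a fold change above 1.5). All 3, Uqcrc1, Uqcrq and Uqcr10, belong to complex III, which holds 9 of the 83. Over all 9986 genes tested, 3.51% were called higher and 7.10% lower, so the share of called genes, 3.61%, was close to that of the genes at large. The lower side held 0 genes also at an unadjusted p under 0.05 and by DESeq2, while 19 genes were higher at an unadjusted p under 0.05 and DESeq2 called 4 higher, Atp5d beside the 3. Of all 9986 genes, 1504 were higher and 1498 lower at that unadjusted p. Of the 83 genes, 65 had a positive log2 difference, with a median of 0.24, beside a median of 0.07 over all genes. The 4 Nlrp3-/- libraries lay above the 4 WT libraries for 8 genes (9.64%, against 7.59% of all genes) and below them for 1, the assembly factor Ndufaf4, where 11.7% of all genes lay below.

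In G-MDSCs, 9 of 79 tested genes were called higher in Nlrp3-/- cells (11.4%, against 4.70% of all 9273 genes) and 0 lower, while 11.7% of all genes were called lower. Of the 9, 7 belong to complex I (Ndufa7, Ndufa8, Ndufa9, Ndufb9, Ndufb11, Ndufs7 and Ndufv3) and 2 to complex III (Uqcrq and Uqcr11). At an unadjusted p under 0.05, 29 genes were higher and 2 lower, and DESeq2 called 11 higher and 0 lower. Of all 9273 genes, 1273 were higher and 1724 lower at that unadjusted p. The median log2 difference was 0.39, beside 0.03 over all genes, and 71 of the 79 genes were positive. For 30 genes (38.0%, against 12.0% of all genes) every Nlrp3-/- library lay above every WT library, and for 0 genes below, where 12.3% of all genes lay below. Without the fold change minimum 13 genes were called, the 9 above with Atp5b, Cox5b, Cox6a1 and Ndufa6. All were higher, beside 530 higher and 1145 lower of all 9273 genes. In the same G-MDSC libraries the red pulp macrophage markers summed to at least 417 CPM in Nlrp3-/- and at most 253 CPM in WT cells. The monocyte markers summed to 1017 to 1225 CPM against 633 to 943 CPM and the dendritic cell markers to 1284 to 2149 CPM against 596 to 1064 CPM. The eosinophil and basophil markers summed to 57.8 to 65.3 CPM against 27.1 to 51.8 CPM. All of these lists were thus higher without overlap in Nlrp3-/- cells, and their part in the differences above was not tested.

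The kept genes have short transcripts, with a median length of 1232 bases against 3390 among the genes tested in M-MDSCs, and 7.68% of those genes are shorter than this median. When the trend of each library with transcript length and GC content was entered as an offset, the median difference fell to 0.08 in M-MDSCs and to 0.17 in G-MDSCs. The calls were then Uqcrc1, Atp5l and Ndufb2 in M-MDSCs and Uqcrq alone in G-MDSCs. With such offsets 2.55% and 2.94% of all genes were called higher in the 2 subsets. The part of transcript length or GC content in the genotype difference was not tested beyond these fits.

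Whether genotype acted unequally in M-MDSCs and G-MDSCs was tested as an interaction term over all 16 libraries. It passed an FDR of 0.05 for 0 of 83 genes (0.0280% of all genes, 3 of 10696), 5 genes had an unadjusted p under 0.05, DESeq2 called 0, and the smallest edgeR adjusted p was 0.790, for Cox6b2. With the mouse as a block, since both subsets came from the same mice, it passed for 0 of 83 and for 4 genes in all, 15 of the 83 had an unadjusted p under 0.05, and the smallest edgeR adjusted p was 0.282. The counts of 5 and 15 genes at an unadjusted p stand without the share of all genes. The higher count of calls in G-MDSCs was thus not shown to be a difference between subsets by either fit. Both genotype comparisons tested 79 genes in common, of which 59 had a positive difference in each subset, 5 a negative one in each, and 1, Uqcrq, was called in both. The 2 comparisons draw on different libraries but on the same 8 mice.

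The comparison of G-MDSCs with M-MDSCs gave larger differences. In WT mice 44 of 83 genes were called lower in G-MDSCs (53.0%, against 27.1% of all 9739 genes) and 0 higher, where 26.3% of all genes were called higher, with 2 higher at an unadjusted p under 0.05 and 0 called higher by DESeq2. At that unadjusted p, 2953 of all 9739 genes were higher. The 44 comprised 25 genes of complex I, 2 of complex II, 4 of complex III, 3 of complex IV, 9 of complex V and Cycs. In Nlrp3-/- mice 38 of 82 genes were lower (46.3%, against 27.4%) and 3 higher (Cox8a, Ndufa7 and Ndufb9, 3.66%, against 23.7%), and the 38 comprised 20, 1, 3, 4 and 9 genes of the complexes in the same order and Cycs. The genotypes shared 35 of these lower genes, 79.5% of the 44 and 92.1% of the 38. The median log2 difference was -0.73 in WT and -0.64 in Nlrp3-/- mice, beside -0.05 and -0.12 over all genes. For 46 genes in WT (55.4%, against 26.4% of all genes) and 34 in Nlrp3-/- mice (41.5%, against 24.0%), every G-MDSC library lay below every M-MDSC library. Since each mouse gave both subsets, levels were also read within mice, and 43 of the 83 genes were lower in the G-MDSCs of 8 of 8 mice. The share of all genes that were lower in 8 of 8 mice was not computed, so this count stands without a background. Scaling by library size alone moved the median of all genes to -0.79 in WT and -0.83 in Nlrp3-/- mice, and relative to it the median of the 83 genes was -0.70 and -0.52, against -0.68 and -0.52 with TMM. With the mouse as a block, 49 genes were called lower in WT, where Cox7c, Atp5j, Ndufa1, Ndufa4, Ndufaf5 and Ndufaf7 entered and Ndufaf1 left, and 39 in Nlrp3-/- mice, where Atp5sl and Ndufaf1 entered and Atp5c1 left. Over all genes this block called 2797 of 9739 lower in WT and 2898 of 10071 in Nlrp3-/- mice. The counts of lower genes in this paragraph include Cox6b2 and, where called, Ndufaf1 and Ndufaf5. These met the count minimum mainly through M-MDSCs, so their lower calls are given as a description.

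**Figure D2:**
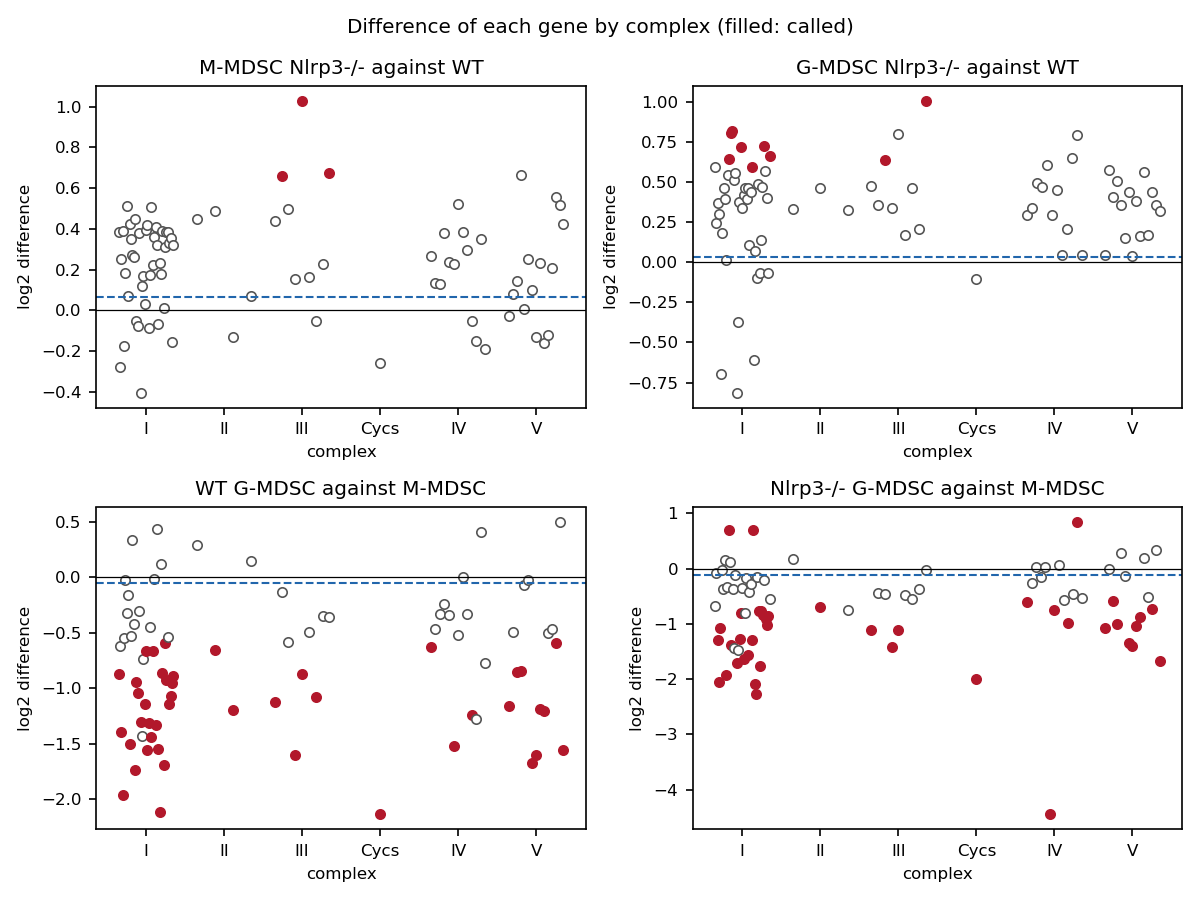
Log2 difference (vertical axis) of each tested gene in the 4 comparisons, grouped by complex. Each point is 1 gene, filled where edgeR's FDR is under 0.05 and the fold change above 1.5, and the dashed line is the median of all genes tested (0.07, 0.03, -0.05 and -0.12 in the order of the panels). Called genes are all higher in Nlrp3-/- cells in the upper panels, and in the lower panels all are lower in G-MDSCs except Cox8a, Ndufa7 and Ndufb9 in Nlrp3-/- mice.

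Complex I holds 7 nuclear-encoded core subunits, which carry the flavin and the iron-sulfur clusters, and many accessory subunits around them. Between genotypes Ndufs7 was called in G-MDSCs and not in M-MDSCs. Ndufs7, which bears the last iron-sulfur cluster before ubiquinone, measured 38.4, 31.8, 30.3 and 33.9 CPM in WT and 52.7, 67.1, 53.9 and 61.9 CPM in Nlrp3-/- G-MDSCs. The 2 ranges did not overlap (log2 difference 0.73 ± 0.18, edgeR adjusted p = 0.0140). After a log2 difference, ± gives its standard error, derived from the edgeR test statistic, and not an SD between libraries. Ndufv1, which binds the flavin that accepts electrons from NADH, had 36.7, 33.5, 30.0 and 24.1 CPM in WT and 39.7, 40.2, 46.0 and 48.5 CPM in Nlrp3-/- G-MDSCs, and did not pass the test (log2 difference 0.40 ± 0.20, edgeR adjusted p = 0.172). Ndufs1, the largest subunit of the NADH-oxidizing arm, had 45.7, 44.3, 34.9 and 35.8 and 41.8, 33.3, 48.1 and 36.2 CPM in these groups, with overlapping values (log2 difference -0.10 ± 0.20, edgeR adjusted p = 0.771).

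Between subsets, Ndufv1, Ndufv2, Ndufs3 and Ndufs8 were called lower in G-MDSCs in both genotypes, while Ndufs7 and Ndufs1 were not. Ndufv1 averaged 65.2 ± 9.97 CPM (SD, n = 4) in WT M-MDSCs and 31.1 ± 5.39 CPM in WT G-MDSCs, and 82.5 ± 15.7 and 43.6 ± 4.33 CPM in the Nlrp3-/- ones. Its log2 difference was -1.07 ± 0.19 in WT and -1.03 ± 0.18 in Nlrp3-/- mice (edgeR adjusted p = 0.000405 and 0.000208). Ndufs1 measured 32.9, 36.0, 43.3 and 35.3 CPM in WT M-MDSCs, a range that overlaps the WT G-MDSC values above, and its log2 difference was 0.12 ± 0.18 in WT and -0.16 ± 0.20 in Nlrp3-/- mice (edgeR adjusted p = 0.566 and 0.536). With library size alone as the scale, Ndufs1 was called lower in WT G-MDSCs (-0.63, edgeR adjusted p = 0.00813), so its direction rests on the scaling.

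Of the 28 accessory genes of complex I, 0 were called between genotypes in M-MDSCs and 6 in G-MDSCs (21.4%, against 4.70% of all genes called higher), all higher in Nlrp3-/- cells. Ndufa7, an accessory subunit of the matrix arm, had 104, 106, 122 and 120.3 CPM in WT and 192, 190.3, 179 and 188 CPM in Nlrp3-/- G-MDSCs (log2 difference 0.64 ± 0.14, edgeR adjusted p = 0.00667). Ndufb9, of the membrane arm, had 133, 113, 141 and 112 and 204, 198, 198 and 199 CPM (log2 difference 0.59 ± 0.14, edgeR adjusted p = 0.0105). In both genes the Nlrp3-/- libraries sat close together and above all WT libraries. In M-MDSCs neither passed the test, with log2 differences of 0.27 and 0.32 and overlapping libraries (91.2, 78.7, 97.4 and 90.1 CPM in WT and 112, 84.4, 99.0 and 127 CPM in Nlrp3-/- cells for Ndufa7). The test of the difference between subsets gave an unadjusted p of 0.0283 for Ndufa7 and 0.133 for Ndufb9, with an edgeR adjusted p of 0.992 for both.

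Ndufa8, also accessory, had 42.7, 61.6, 77.1 and 42.8 CPM in WT and 124, 98.3, 97.6 and 98.9 CPM in Nlrp3-/- G-MDSCs (log2 difference 0.81 ± 0.21, edgeR adjusted p = 0.0169). Ndufv3, a small subunit beside the flavoprotein, had 36.4, 34.9, 41.9 and 40.5 and 56.1, 60.2, 73.3 and 68.7 CPM (log2 difference 0.66 ± 0.18, edgeR adjusted p = 0.0192). Ndufb11 had 62.8, 39.3, 50.9 and 45.9 and 71.8, 107, 84.3 and 83.7 CPM (log2 difference 0.72 ± 0.19, edgeR adjusted p = 0.0205), and Ndufa9, which lies near the ubiquinone site, 12.7, 15.2, 18.2 and 11.7 and 22.9, 19.5, 33.4 and 33.3 CPM (log2 difference 0.82 ± 0.26, edgeR adjusted p = 0.0436). The genotypes did not overlap in any of these 4 genes. Leaving out 1 of the 8 libraries at a time ended the call of Ndufa9 in 5 fits, of Ndufb11 in 3, of Ndufv3 and of Ndufb9 in 2, of Ndufa8 in 1 and of Ndufa7 and Ndufs7 in 0.

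Ndufa7 and Ndufb9 also stood apart between subsets. They were called higher in G-MDSCs than in M-MDSCs of Nlrp3-/- mice, by 0.71 ± 0.17 and 0.70 ± 0.17 on the log2 scale (edgeR adjusted p = 0.00257 and 0.00272), a direction that vanished with library size alone as the scale (-0.01 for both). In contrast, 17 of the 28 accessory genes were called lower in G-MDSCs of WT mice (60.7%, against 27.1% of all genes) and 13 in those of Nlrp3-/- mice (46.4%, against 27.4%). Ndufc2, a membrane subunit, had 81.6, 77.6, 81.9 and 82.9 CPM in WT M-MDSCs and 19.7, 19.97, 19.1 and 15.6 CPM in WT G-MDSCs (log2 difference -2.12 ± 0.16, edgeR adjusted p = 5.35e-07). In Nlrp3-/- mice it had 106, 82.4, 91.7 and 91.9 CPM in M-MDSCs and 25.9, 10.1, 28.6 and 18.4 CPM in G-MDSCs (log2 difference -2.28 ± 0.27, edgeR adjusted p = 6.92e-06). All M-MDSC libraries lay far above all G-MDSC libraries in both genotypes. Further called genes were Ndufb2 (-1.55 in WT and -1.63 in Nlrp3-/- mice), Ndufb5 (-1.44 and -1.56), Ndufa11 (-1.96 and -2.05) and Ndufc1 (-1.54 and -2.08), with an edgeR adjusted p of at most 0.000131 in each. With TMM factors, genes of the same complex thus lay on both sides of the M-MDSC level in Nlrp3-/- mice.

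Of the 6 assembly factor genes, 0 were called between genotypes in M-MDSCs, and Ndufaf4, required for early assembly of the matrix arm, measured 14.1, 15.5, 11.95 and 11.99 CPM in WT and 10.5, 11.6, 9.19 and 8.48 CPM in Nlrp3-/- cells, the only gene of the 83 with every Nlrp3-/- library below every WT library (log2 difference -0.41, edgeR adjusted p = 0.234). It was called lower in G-MDSCs of both genotypes (-1.30 in WT and -1.71 in Nlrp3-/- mice, edgeR adjusted p = 0.00470 and 0.00188). Ndufaf7 was called lower in Nlrp3-/- mice as well, and Atp5sl and Ndufaf1 in WT mice. Ndufaf1 met the count minimum mainly through M-MDSCs, since it held 16 to 33 counts in their libraries and 1 to 12 in those of G-MDSCs. Ndufaf5 did so too, with 10 to 37 and 0 to 15 counts. A lower level of either gene in G-MDSCs was thus in part fixed by that minimum.

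Complex II, succinate dehydrogenase, consists of 4 nuclear-encoded subunits and 0 of them were called between genotypes. Sdha, the flavoprotein that oxidizes succinate, had 107, 98.9, 93.5 and 87.0 CPM in WT and 111, 128, 150.4 and 132 CPM in Nlrp3-/- M-MDSCs, without overlap but short of the threshold (log2 difference 0.45 ± 0.14, edgeR adjusted p = 0.0613). In G-MDSCs it had 145, 113, 114 and 103 and 132, 164, 166 and 169 CPM (log2 difference 0.33 ± 0.16, edgeR adjusted p = 0.163). Sdha was also not called between subsets, at 0.30 ± 0.16 in WT and 0.17 ± 0.15 in Nlrp3-/- mice (edgeR adjusted p = 0.122 and 0.372). This direction turned with library size alone as the scale, to -0.45 and -0.55. Sdhb, the iron-sulfur subunit that takes electrons onward, was called lower in G-MDSCs of both genotypes, with 262, 150.3, 190.2 and 166 CPM in WT M-MDSCs and 158, 116, 95.7 and 118 CPM in WT G-MDSCs (log2 difference -0.65 ± 0.21, edgeR adjusted p = 0.0184), and -0.69 in Nlrp3-/- mice (edgeR adjusted p = 0.00788). Whether Sdha and Sdhb differed from each other in this was not tested.

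Sdhc and Sdhd anchor the enzyme in the membrane, and their values scattered within groups. Sdhc measured 17.7, 48.1, 50.7 and 47.6 CPM in WT and 67.4, 17.1, 12.7 and 46.1 CPM in Nlrp3-/- M-MDSCs (log2 difference -0.13 ± 0.49, edgeR adjusted p = 0.890), and 9.01, 7.78, 35.6 and 17.9 and 29.6, 25.7, 17.0 and 22.6 CPM in G-MDSCs (log2 difference 0.33 ± 0.40, edgeR adjusted p = 0.613). It was called lower in WT G-MDSCs than in WT M-MDSCs (log2 difference -1.20 ± 0.45, edgeR adjusted p = 0.0396), a call that 6 of 8 fits without a library lost, and not in Nlrp3-/- mice (-0.74 ± 0.44, edgeR adjusted p = 0.170). Sdhd measured 1.67, 7.03, 6.96 and 7.196 CPM in WT M-MDSCs and 20.6, 0, 0.835 and 0.257 CPM in Nlrp3-/- M-MDSCs, where replicate 1 alone held nearly all of its reads. The fitted log2 difference was 0.07 ± 1.10 (edgeR adjusted p = 0.977), and without that library it was -4.02 (edgeR adjusted p = 0.00679), so no direction is given for Sdhd. In G-MDSCs it had 4.34, 0.677, 6.06 and 14.4 CPM in WT and 2.31, 1.48, 0.207 and 0 CPM in Nlrp3-/- cells and was not tested between genotypes for low counts.

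Complex III, the cytochrome bc1 complex, held the 3 genes called between genotypes in M-MDSCs. Uqcrc1, a core subunit of the matrix side (chr9:108936633-108949623 in mm10, plus strand), had 67.4, 61.2, 62.6 and 84.6 CPM in WT and 119, 121, 177 and 136 CPM in Nlrp3-/- M-MDSCs. Every Nlrp3-/- library exceeded every WT library (log2 difference 1.03 ± 0.17, edgeR adjusted p = 0.00484). In G-MDSCs its values were 41.1, 54.8, 13.6 and 42.03 CPM in WT, with replicate 3 far below the others, and 71.8, 75.5, 71.3 and 59.3 CPM in Nlrp3-/- cells, again without overlap (log2 difference 0.80 ± 0.31, edgeR adjusted p = 0.0931). The call in M-MDSCs held in each of the 8 fits without a library. Without replicate 2 of the WT M-MDSCs, the library with the high neutrophil markers, Uqcrc1 was the only call of the 83 genes in M-MDSCs. The same held without WT M-MDSC replicate 3, WT M-MDSC replicate 4 or Nlrp3-/- M-MDSC replicate 4, so it was not particular to that library.

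Uqcrq, a small subunit of the membrane part, was called in both subsets. It measured 166, 129, 135 and 140.5 CPM in WT and 223, 181, 251 and 240.1 CPM in Nlrp3-/- M-MDSCs (log2 difference 0.68 ± 0.16, edgeR adjusted p = 0.0204), and 107, 93.1, 123 and 122 and 235, 229.6, 226 and 259.6 CPM in G-MDSCs (log2 difference 1.01 ± 0.15, edgeR adjusted p = 0.000446). The genotypes were apart in both subsets, and the difference between subsets had an unadjusted p of 0.0462 and an edgeR adjusted p of 0.992. In M-MDSCs the call was lost in 4 of 8 fits without a library, and in G-MDSCs in 0. Uqcr10, another small subunit, had 137, 87.6, 104 and 81.6 CPM in WT and 126, 148, 202 and 163 CPM in Nlrp3-/- M-MDSCs, with overlapping values and an adjusted p just inside the threshold (log2 difference 0.66 ± 0.20, edgeR adjusted p = 0.049998), and 6 of 8 fits without a library lost it. Uqcr11 was called in G-MDSCs only, with 39.7, 30.8, 33.0 and 31.1 CPM in WT and 55.4, 63.0, 58.2 and 44.6 CPM in Nlrp3-/- cells (log2 difference 0.63 ± 0.19, edgeR adjusted p = 0.0330), and in M-MDSCs its log2 difference was 0.50 ± 0.23 (edgeR adjusted p = 0.165). Its call was lost in 6 of 8 fits without a library.

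The 2 catalytic subunits of complex III encoded in the nucleus were not called between genotypes. Cyc1, the heme protein cytochrome c1, had 34.6, 30.8, 36.6 and 29.8 CPM in WT and 41.5, 40.8, 45.1 and 48.3 CPM in Nlrp3-/- M-MDSCs, without overlap (log2 difference 0.44 ± 0.15, edgeR adjusted p = 0.0832), and 22.4, 10.2, 16.2 and 11.3 and 21.9, 18.8, 21.1 and 26.8 CPM in G-MDSCs (log2 difference 0.47 ± 0.28, edgeR adjusted p = 0.255). Uqcrfs1, the Rieske iron-sulfur protein, scattered widely, with 28.2, 70.9, 82.8 and 70.6 CPM in WT and 97.0, 33.1, 28.6 and 75.9 CPM in Nlrp3-/- M-MDSCs (log2 difference -0.05 ± 0.41, edgeR adjusted p = 0.950), and in G-MDSCs its difference was 0.46 ± 0.28 (edgeR adjusted p = 0.279). Between subsets Cyc1, Uqcrb and Uqcrc1 were called lower in G-MDSCs of both genotypes. Cyc1 differed by -1.13 ± 0.25 in WT and -1.10 ± 0.20 in Nlrp3-/- mice (edgeR adjusted p = 0.00222 and 0.000323), and Uqcrb by -1.60 and -1.41 (edgeR adjusted p = 3.67e-05 and 6.83e-05). Uqcrc1 differed by -0.87 and -1.10 (edgeR adjusted p = 0.0375 and 9.28e-05), and Uqcrfs1 was called in WT mice (-1.08, edgeR adjusted p = 0.0235) but not in Nlrp3-/- mice (-0.56, edgeR adjusted p = 0.180).

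Cycs, somatic cytochrome c, which carries electrons from complex III to complex IV and takes part in apoptosis when released, did not differ detectably between genotypes (log2 difference -0.26 ± 0.26, edgeR adjusted p = 0.540 in M-MDSCs and log2 difference -0.11 ± 0.43, edgeR adjusted p = 0.891 in G-MDSCs). Between subsets it had the lowest ratio of all the summed levels. It measured 23.4, 14.2, 18.6 and 24.7 CPM in WT M-MDSCs and 3.34, 3.72, 6.54 and 4.28 CPM in WT G-MDSCs (log2 difference -2.13 ± 0.30, edgeR adjusted p = 8.37e-05). In Nlrp3-/- mice it measured 15.7, 10.1, 20.3 and 19.8 CPM in M-MDSCs and 4.39, 4.94, 4.77 and 3.67 CPM in G-MDSCs (log2 difference -2.00 ± 0.33, edgeR adjusted p = 0.000177). In 8 of 8 mice the G-MDSC value was the lower one, at 0.143 to 0.353 of the M-MDSC value in WT and 0.186 to 0.491 in Nlrp3-/- mice. Cycs is near-identical to processed copies elsewhere in the mouse genome, and reads shared with them may be counted elsewhere or dropped.

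Complex IV, cytochrome c oxidase, had 0 of 13 genes called between genotypes in M-MDSCs (10 positive) and 0 of 12 in G-MDSCs. In G-MDSCs 12 of 12 differences were positive, and 7 genes lay higher without overlap (58.3%, against 12.0% of all genes). Cox5b, which binds zinc, had 78.1, 84.6, 112 and 93.4 CPM in WT and 136, 136, 135 and 146 CPM in Nlrp3-/- G-MDSCs, with an adjusted p under 0.05 but a fold change below 1.5 (log2 difference 0.49 ± 0.16, edgeR adjusted p = 0.0425). Cox8a, a small membrane subunit, had 226, 104, 374 and 285 CPM in WT and 389, 493, 436 and 500.4 CPM in Nlrp3-/- G-MDSCs. Its ranges did not overlap, the WT libraries scattered widely, and the test was not passed (log2 difference 0.79 ± 0.28, edgeR adjusted p = 0.0627). Cox4i1, the largest nuclear subunit, had 202, 296, 252 and 179 and 293, 318, 322 and 277 CPM (log2 difference 0.29 ± 0.17, edgeR adjusted p = 0.261), and Cox5a 71.1, 85.6, 90.1 and 84.5 and 105, 112, 117 and 109.6 CPM (log2 difference 0.33 ± 0.15, edgeR adjusted p = 0.147). In M-MDSCs the differences of Cox4i1, Cox5a and Cox5b were 0.27, 0.13 and 0.13 (edgeR adjusted p = 0.387, 0.622 and 0.688).

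Between subsets complex IV was the complex with the smallest share of genes called lower. In WT mice 3 of 13 were lower (23.1%, against 27.1% of all genes). In Nlrp3-/- mice 4 of 13 were lower (30.8%, against 27.4%) and 1 higher. Both lower shares were thus close to those of the genes at large. Both counts include Cox6b2, which met the count minimum through M-MDSCs. Cox7b, Cox6b2 and Cox4i1 were called lower in both genotypes and Cox6c in Nlrp3-/- mice (log2 difference -0.75 ± 0.18, edgeR adjusted p = 0.00338). Cox4i1 averaged 359.7 ± 95.4 CPM in WT M-MDSCs and 232 ± 52.2 CPM in WT G-MDSCs (log2 difference -0.63 ± 0.22, edgeR adjusted p = 0.0256), and -0.60 in Nlrp3-/- mice (edgeR adjusted p = 0.00437), and this call was lost in 3 of 8 fits without a library in each genotype. It was also lost with GC and length offsets in both genotypes and, in Nlrp3-/- mice, with DESeq2 size factors, the DESeq2 test, the 10-count filter and the 16-library model, so that 9 of 20 alternatives there and 5 of 20 in WT mice did not keep it. Cox8a was called higher in G-MDSCs of Nlrp3-/- mice, with 275, 171, 221 and 266 CPM in M-MDSCs (log2 difference 0.84 ± 0.18, edgeR adjusted p = 0.00144), and this call was lost with library size alone as the scale. In WT mice its difference was 0.41 ± 0.29 (edgeR adjusted p = 0.253). Cox5a and Cox5b were not called between subsets (-0.47 and -0.33 in WT, -0.27 and 0.03 in Nlrp3-/- mice), and Cox5b turned to a called -0.69 in Nlrp3-/- mice under library size alone (edgeR adjusted p = 0.00558).

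Ndufa4, named for complex I but a subunit of complex IV, had 24.0, 50.1, 46.0 and 34.95 CPM in WT M-MDSCs and 10.7, 34.2, 27.9 and 17.9 CPM in WT G-MDSCs. It missed the threshold without the mouse as a block (log2 difference -0.77 ± 0.33, edgeR adjusted p = 0.0666) and passed with it (-0.82, edgeR adjusted p = 0.00177), and in Nlrp3-/- mice it was at -0.53 ± 0.34 (edgeR adjusted p = 0.210). Cox7a2l, which joins complexes III and IV in supercomplexes, was not called in any comparison (log2 differences 0.30 and 0.05 between genotypes, -0.33 and -0.58 between subsets), although every Nlrp3-/- G-MDSC library lay below every Nlrp3-/- M-MDSC library. Between the Nlrp3-/- subsets its edgeR adjusted p was 0.0136 and only the fold minimum was missed. In that comparison 8 of 20 alternatives called it lower in G-MDSCs. Cox6b2, the testis form of subunit VIb, was detected at 10.0, 6.33, 8.74 and 8.57 CPM in WT and 6.63, 9.04, 15.9 and 7.71 CPM in Nlrp3-/- M-MDSCs. In G-MDSCs it had 2.67, 4.74, 1.70 and 2.72 CPM in WT and 0, 0.494, 1.24 and 0 CPM in Nlrp3-/- cells (log2 difference -1.51 ± 0.37, edgeR adjusted p = 0.00404 in WT and log2 difference -4.45 ± 0.74, edgeR adjusted p = 0.000166 in Nlrp3-/- mice), and the second value depends on the prior count because 2 libraries held no read. Cox6b2 met the count minimum through M-MDSCs, with 25 to 76 counts in each of their libraries and 0 to 14 in those of G-MDSCs, of which 1 of 8 reached 10, so a lower level in G-MDSCs was in part fixed by that minimum and its 2 calls are given as a description. Its paralog Cox6b1 had 209, 162, 211 and 194 CPM in WT M-MDSCs and 119.9, 85.6, 205 and 204 CPM in WT G-MDSCs (log2 difference -0.34 ± 0.25, edgeR adjusted p = 0.270).

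Complex V, ATP synthase, joins the F1 head to a membrane ring of c subunits by a peripheral stalk. Between genotypes 0 of 15 genes were called in either subset, with 11 positive in M-MDSCs and 15 in G-MDSCs. Atp5b, the catalytic beta subunit, had 94.8, 113, 168 and 112 CPM in WT and 206, 185, 179 and 203 CPM in Nlrp3-/- G-MDSCs, without overlap and under the fold minimum (log2 difference 0.57 ± 0.18, edgeR adjusted p = 0.0401), and in M-MDSCs its difference was 0.08 ± 0.19 (edgeR adjusted p = 0.812). Atp5a1, the alpha subunit, had 118, 123, 138 and 90.3 and 157, 135, 126 and 94.9 CPM in G-MDSCs (log2 difference 0.04 ± 0.19, edgeR adjusted p = 0.898) and a difference of -0.03 ± 0.19 in M-MDSCs (edgeR adjusted p = 0.937). The enzyme holds alpha and beta in equal number, and whether their differences were unequal was not tested.

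Between subsets 9 of 15 genes of complex V were called lower in G-MDSCs in each genotype, and the 9 were the same genes. This share of 60% stood against 27.1% of all genes in WT and 27.4% in Nlrp3-/- mice. All 3 c-ring genes, Atp5g1, Atp5g2 and Atp5g3, which encode the same mature protein, were among them. Atp5g1 had 20.4, 17.4, 18.7 and 17.5 CPM in WT M-MDSCs and 8.01, 4.06, 6.30 and 4.67 CPM in WT G-MDSCs (log2 difference -1.67 ± 0.26, edgeR adjusted p = 0.000204), Atp5g2 differed by -1.60 and Atp5g3 by -1.19 (edgeR adjusted p = 0.00401 and 0.000413). In Nlrp3-/- mice the 3 differences were -1.35, -1.41 and -1.04 (edgeR adjusted p = 0.00193, 0.0136 and 0.000480). Atp5o, the stalk subunit that confers oligomycin sensitivity, had 177, 116, 154 and 128 CPM in WT M-MDSCs and 52.8, 56.5, 39.3 and 47.1 CPM in WT G-MDSCs (log2 difference -1.56 ± 0.19, edgeR adjusted p = 2.18e-05), and -1.67 in Nlrp3-/- mice (edgeR adjusted p = 1.76e-06). Atp5a1 was called in both genotypes (-1.15 and -1.08, edgeR adjusted p = 7.22e-05 and 0.000636), whereas Atp5b was in neither, with -0.49 in WT (edgeR adjusted p = 0.0391, under the fold minimum) and -0.0019 in Nlrp3-/- mice (edgeR adjusted p = 0.994).

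**Figure D3:**
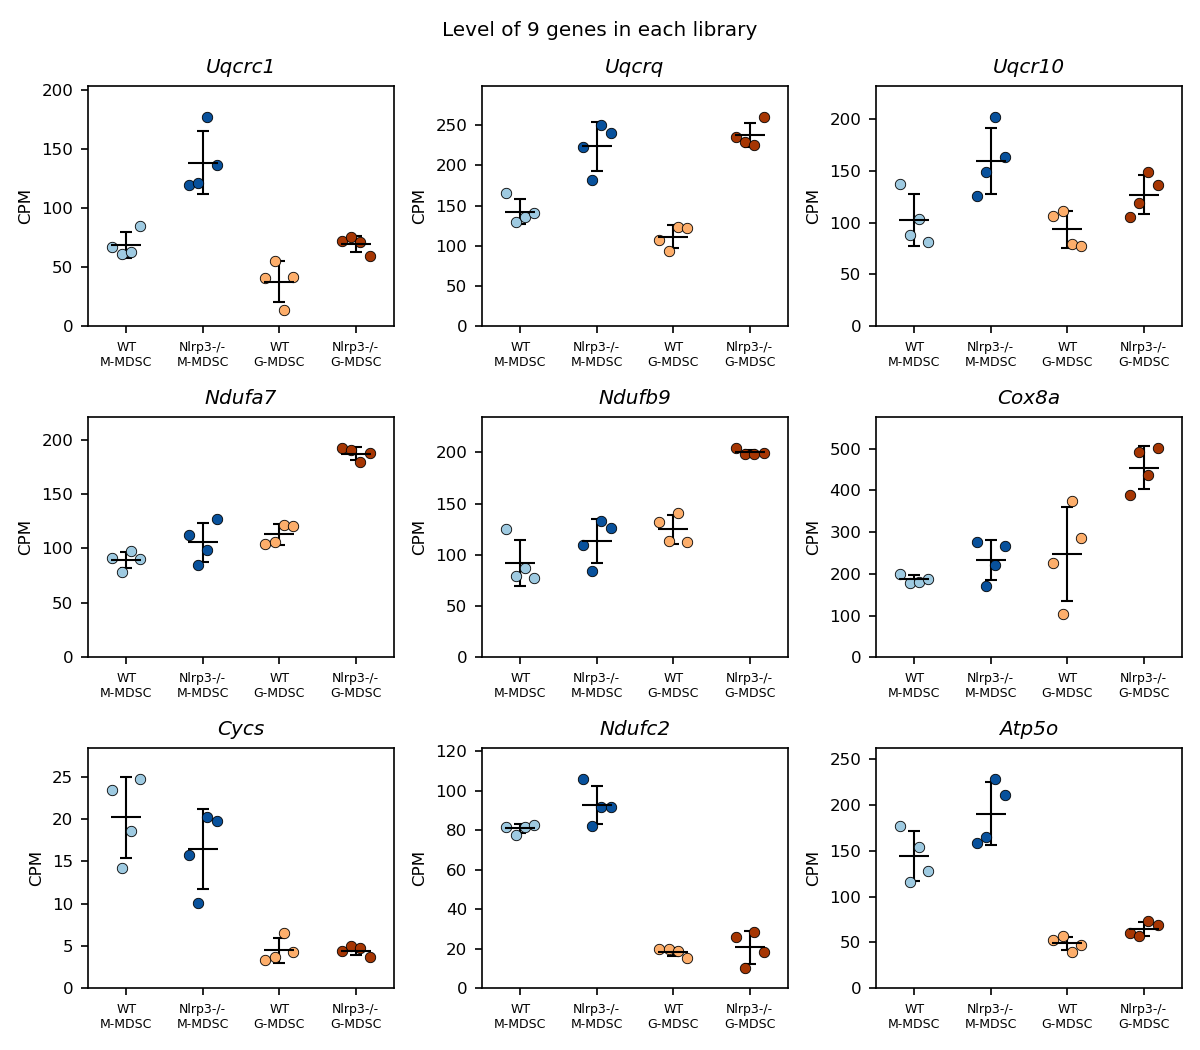
TMM-scaled CPM (vertical axes, from 0) of 9 genes in the 4 groups, each point 1 library and bars the mean and SD (n = 4). Uqcrc1 and Uqcrq are higher in all Nlrp3-/- libraries of both subsets, Ndufa7 and Ndufb9 in those of G-MDSCs, and Cycs, Ndufc2 and Atp5o are lower in all G-MDSC libraries of either genotype.

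Promoter windows of 250 bases before and 50 after the start site were given for 71 of the 83 genes (RefSeq, GRCm38.p6, 69 by symbol and 2 by a synonym), and they were searched on both strands for 3 motifs of factors known to act on respiratory genes. The NRF1 core GCGCATGCG was in 11 of 71 windows (15.5%, against 1.81% of all 27025 genes in the table). The GABP core CCGGAAGT was in 5 (7.04%, against 4%) and the YY1 core AAGATGGC in 10 (14.1%, against 2.88%). The windows of the 71 genes were richer in GC, with a median of 58.3% against 52.7%. Genes with the NRF1 core included Cycs, Uqcrc1, Uqcr11, Ndufa8 and Ndufa11, and those with the YY1 core Ndufs7, Ndufa9 and Ndufb8. The 11 genes with the NRF1 core had a median log2 difference of 0.38 between genotypes in M-MDSCs, against 0.23 in the other 60, and in G-MDSCs the medians of the 10 and 57 genes tested were 0.40 and 0.40. Between subsets their medians were -0.87 against -0.75 in WT and, with 59 others, -1.10 against -0.58 in Nlrp3-/- mice. These are descriptions of letters in a window, with no test. Shown are the 250 bases before the start of Cycs, the gene with the most negative difference between the subsets of WT mice (chr6:50566570-50566819, minus strand), the same for Ndufa7, called higher in Nlrp3-/- G-MDSCs (chr17:33824322-33824571, plus strand), and 30 bases just past the start of Uqcrc1 (chr9:108936668-108936697, plus strand). Capitals mark the NRF1 core, which in Uqcrc1 is read on both strands with overlap.
Cycs: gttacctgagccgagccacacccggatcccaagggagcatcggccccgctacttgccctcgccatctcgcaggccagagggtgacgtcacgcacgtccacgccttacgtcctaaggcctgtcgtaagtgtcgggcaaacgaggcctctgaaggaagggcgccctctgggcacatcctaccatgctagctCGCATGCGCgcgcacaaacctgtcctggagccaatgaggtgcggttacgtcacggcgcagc
Ndufa7: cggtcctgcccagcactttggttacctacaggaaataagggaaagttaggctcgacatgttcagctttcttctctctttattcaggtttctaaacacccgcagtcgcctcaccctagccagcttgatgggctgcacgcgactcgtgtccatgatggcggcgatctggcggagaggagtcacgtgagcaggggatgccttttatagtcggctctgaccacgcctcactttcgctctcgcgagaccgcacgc
Uqcrc1: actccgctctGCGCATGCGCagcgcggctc
Ndufa7 held 0 of the 3 motifs in this stretch.

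Several genes varied widely between libraries of the same group. Among the 71 genes with a mean of at least 20 CPM, 8 had a within-group SD above 0.5 on the log2 scale, a limit set after the values were seen (11.3%, against 9.80% of the 5376 rows at that mean). They were Cox7c, Ndufa1, Atp5j, Ndufb3, Sdhc, Uqcrfs1, Ndufa4 and Ndufaf7, and so came from complexes I to V. Cox7c, a small subunit of complex IV, had 26.8, 144, 120.1 and 101 CPM in WT and 214, 26.4, 13.8 and 80.8 CPM in Nlrp3-/- M-MDSCs, a 15.5-fold span in the latter. In G-MDSCs it had 8.35, 13.5, 74.1 and 65.0 CPM in WT and 123, 60.7, 34.0 and 52.2 CPM in Nlrp3-/- cells. Replicate 1 was the lowest WT M-MDSC library and the highest Nlrp3-/- M-MDSC library, and replicates 1 and 2 were the low WT G-MDSC libraries.

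The deviations of Ndufb3, Atp5j, Sdhc, Ndufa1 and Uqcrfs1 from their group means followed those of Cox7c over the 16 libraries, with r of 0.962, 0.956, 0.951, 0.926 and 0.917. The 28 pairs among the 8 genes had a median r of 0.814, against 0.235 among the other genes at that mean. Libraries share depth and base composition across genes, and 176 of the 5376 rows at that mean (3.27%) had r above 0.9 with Cox7c, so the pattern is not one of respiratory genes alone. The 8 genes had a median GC content of 46.2% and the others 51.3%, at a median length of 1079.5 and 1141 bases. Of the 8, 0 were called between genotypes, and without them the medians between genotypes were 0.27 in M-MDSCs and 0.39 in G-MDSCs.

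**Figure D4:**
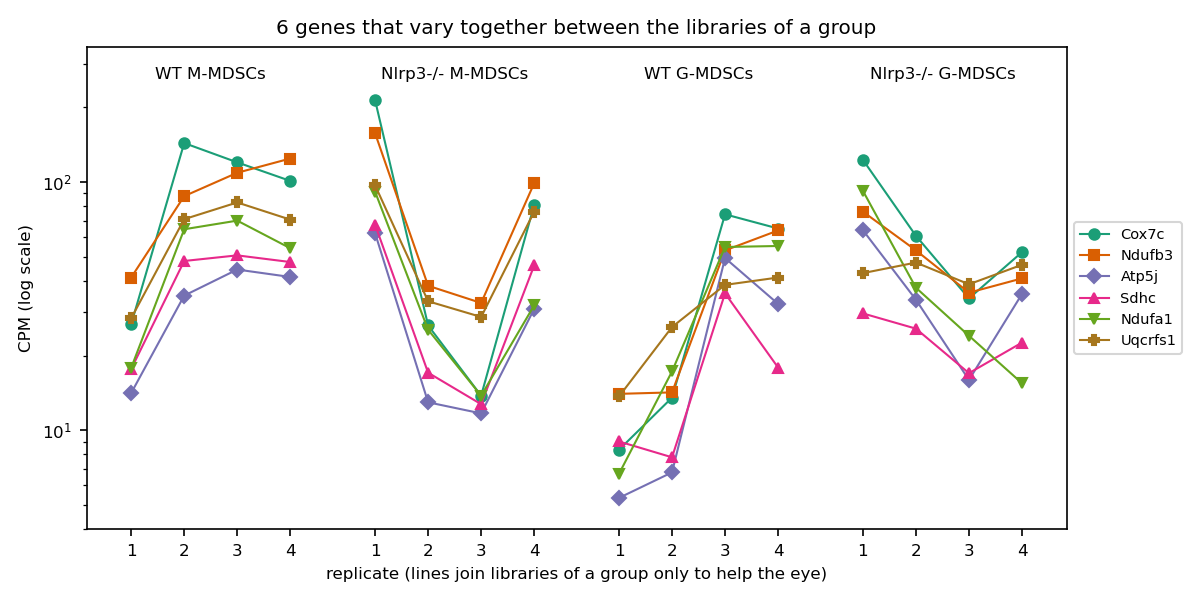
CPM (log axis) of 6 genes in each library, by group and replicate, with lines only to guide the eye. In each group the 6 genes are high or low in largely the same libraries, with replicate 1 lowest in WT M-MDSCs and highest in Nlrp3-/- M-MDSCs.

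Other mitochondrial lists were read in the same fits. Between subsets 26.3% of all genes were called higher and 27.1% lower in WT G-MDSCs, and 23.7% and 27.4% in Nlrp3-/- ones. Between genotypes 3.51% of all genes were called higher and 7.10% lower in M-MDSCs, and 4.70% and 11.7% in G-MDSCs. Of 36 assembly factors outside the symbol rule, 1 of 32 tested was called between genotypes in M-MDSCs, Lyrm7, and 0 of 26 in G-MDSCs, and 11 of 30 and 9 of 31 were lower in G-MDSCs of WT and Nlrp3-/- mice, beside 27.1% and 27.4% of all genes, so the Nlrp3-/- count was close to that background. Of the 18 genes of the tricarboxylic acid cycle and pyruvate dehydrogenase, Idh3g alone was called between genotypes, in M-MDSCs (log2 difference 0.78 ± 0.19, edgeR adjusted p = 0.0249), and 10 of 18 and 9 of 17 were lower in G-MDSCs, with 1 higher in each genotype. Mitochondrial ribosomal proteins had 45 and 46 of 74 genes lower in G-MDSCs and 2 higher, and between genotypes 2 of 75 were called lower in M-MDSCs and 0 of 68 were called in G-MDSCs. Their sum was 1375 to 1626 CPM in WT and 1906 to 2134 CPM in Nlrp3-/- G-MDSCs, without overlap (median log2 difference 0.25, 47 of 68 positive). In M-MDSCs it was 1939 to 2250 and 2103 to 2713 CPM, with overlap (median 0.11, 56 of 75 positive). Among membrane carriers and import genes, Vdac1 (0.93 ± 0.20, edgeR adjusted p = 0.00549), Tomm22 (0.80 ± 0.21, edgeR adjusted p = 0.0169) and Tomm70a (0.78 ± 0.25, edgeR adjusted p = 0.0405) were higher in Nlrp3-/- G-MDSCs, and 8 and 7 of 14 were lower in G-MDSCs than in M-MDSCs. Their sum was 570 to 663 CPM in WT and 837 to 913 CPM in Nlrp3-/- G-MDSCs, without overlap. The sums of the assembly factors and of the tricarboxylic acid cycle list overlapped between the genotypes in G-MDSCs.

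Lists outside mitochondria moved as well, and the shares of all genes given for the mitochondrial lists stand beside these counts too. Cytosolic ribosomal proteins, whose transcripts are also short, had 16 of 73 genes higher and 2 lower in Nlrp3-/- G-MDSCs (median log2 difference 0.42) and 3 higher and 1 lower in Nlrp3-/- M-MDSCs (median 0.25), medians close to those of the respiratory genes. Between subsets 65 of 73 were lower in WT and 57 in Nlrp3-/- G-MDSCs. Glycolysis went the other way, with 8 of 16 genes higher in WT G-MDSCs and 2 lower, and 8 of 17 higher and 1 lower in Nlrp3-/- ones (medians 0.50 and 0.53). Of all genes, 26.3% and 23.7% were called higher in these comparisons. These lists were read with TMM factors only, and scaling by library size alone would move every difference between subsets by about the shift given above for all genes. Between genotypes glycolysis had 0 of 17 and 1 of 15 genes called, the latter higher in Nlrp3-/- G-MDSCs. The glycolysis sum was 2731 to 3857 CPM in WT and 4268 to 5251 CPM in Nlrp3-/- G-MDSCs, without overlap (median log2 difference 0.28, 12 of 15 positive). In M-MDSCs it was 1459 to 1913 and 1653 to 2545 CPM, with overlap (median 0.19, 12 of 17 positive). Of 12 regulators of mitochondrial biogenesis, 0 of 11 and 0 of 10 tested were called between genotypes. Of the proliferation list, 2 of 16 genes were lower in Nlrp3-/- M-MDSCs and 2 of 14 in Nlrp3-/- G-MDSCs. Granulocyte progenitor granule genes were called for 0 of 5 between genotypes in M-MDSCs and were not tested in G-MDSCs, and 4 of 5 were lower in G-MDSCs of both genotypes.

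The 11 rows left out were mostly tissue-restricted isoforms. Cox7b2, Cox8c and Ndufa4l2 had 0 counts in all libraries, as had Ndufs5, a widely expressed complex I subunit, so 0 there cannot be taken as absence. Cox8b had 1 count in a single library and Cox4i2, the lung and hypoxia form of subunit IV, at most 2. Cox6a2, the heart and muscle form of subunit VIa, had 1, 0, 4 and 3 counts in WT M-MDSCs and 9, 12, 12 and 9 in Nlrp3-/- M-MDSCs, which do not overlap, and 0 to 4 in any G-MDSC library. Cox7a1 had at most 11 counts, Atp5s at most 10, and the assembly factors Ndufaf2 and Ndufaf6 at most 31 and 34. These counts are given without a test.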

How the data were processed

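RNA of sorted MDSCs was sequenced as 3′ end libraries (QuantSeq 3′ FWD), and each of the 16 deposited files holds raw counts per gene symbol. Per the study's methods and the processing notes of the submitters, the authors aligned reads with HISAT2 2.1.0 to mm10 and counted them by strand with HTSeq; edgeR 3.14.0 is also named. Those counts were used as deposited, and 0 columns were left unused. Reads near the 3′ end do not measure transcript length, and reads shared with processed copies of a gene may be lost, so levels were not compared between genes.

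Groups came from the sample labels. Genes passing edgeR's filter on low counts entered its quasi-likelihood test with TMM factors (R 4.3.3, edgeR 4.0.16, limma 3.58.1), 8 libraries per comparison, and calls needed a Benjamini-Hochberg FDR under 0.05 over all genes tested and a fold change above 1.5. CPM used TMM factors over all 16 libraries. The interaction used all 16 libraries. Figures were drawn with matplotlib 3.10.9. Depth of 2295967 to 6079866 counts puts 3 counts, the floor of detection, at 0.349 to 1.17 CPM, which covers counting error only. Length and GC content were those of the longest GENCODE transcript of a gene. Of 24421 symbols, 24026 were matched to it, 23376 by symbol and 650 by another RefSeq name. DESeq2 1.42.0, other scalings, filters, a 16-library model, blocks, offsets for GC content and length (splines with 4 degrees of freedom), and fits without each library were the alternatives. Scripts were tested on simulated data.

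Same-numbered M-MDSC and G-MDSC libraries of a genotype came from the same mouse per the labels, so they are paired. Their deviations from group means had a mean r of 0.239 in WT (0.0971 to 0.397) and 0.190 in Nlrp3-/- mice (0.00821 to 0.382). None of the 24 replicate pairs held identical values (chi-square per degree of freedom 6.76 to 50.6).

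Named were, per comparison, complex and direction, up to 3 called genes with the smallest p, a fixed set of catalytic and structural subunits (Ndufs1, Ndufv1, Ndufa4, Sdha to Sdhd, Cyc1, Uqcrfs1, Uqcrc1, Cycs, Cox4i1, Cox5a, Cox5b, Cox7a2l, Atp5a1 and Atp5b), tissue isoforms and the rows left out. Ndufa8, Ndufa9, Ndufb11, Ndufv3, Ndufaf4, Cox6b1, Cox7c and the other genes that varied within groups were added after their values were seen. The genes and the lists were chosen with earlier results of these data known. No list was tested as a set. The values of 1 gene are not reported here.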

Additional observations from a re-analysis of the deposited data

Results flagged for a closer look

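Among 184 groups of 4 libraries examined, covering 40 named genes and 6 sums, 12 held a library whose gap to the others was large for the range of its group (Dixon's test at 95%), and chance flags about 1 in 20 groups. In WT M-MDSCs these were all in replicate 1. Ndufv3 measured 95.3 CPM there against 61.7 to 64.8 in the others, and Ndufa9 58.9 against 43.6 to 46.0. Both membrane anchors of complex II were low in that library, Sdhc at 17.7 CPM against 47.6 to 50.7 and Sdhd at 1.67 against 6.96 to 7.196. In Nlrp3-/- M-MDSCs, Sdhd stood at 20.6 CPM in replicate 1 against 0 to 0.835, and the complex V sum was 1933 CPM in replicate 2 against 2464 to 2571.

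In Nlrp3-/- G-MDSCs, replicate 1 was high for Ndufa8 (124 CPM against 97.6 to 98.9), for Ndufb9 (204 against 198 to 199) and for the complex IV sum (2282 against 2222 to 2227), and low for Sdha (132 against 164 to 169). In the same group Cox5b was high in replicate 4 (146 CPM against 135 to 136). The gaps of Ndufb9, Cox5b and the complex IV sum are small next to their level. In WT G-MDSCs, Ndufa11 measured 29.1 CPM in replicate 2 against 16.2 to 18.4.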

How the results depend on the processing

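With library size as the only scale, 5 genes were called higher in Nlrp3-/- than WT M-MDSCs and 20 in Nlrp3-/- than WT G-MDSCs (median 0.514). Between subsets 75 were lower in WT G-MDSCs than M-MDSCs (median -1.49), and 71 lower and 0 higher in Nlrp3-/- G-MDSCs than M-MDSCs (median -1.35). That scale moved all genes too, to medians of -0.791 and -0.834 between subsets and 0.168 and 0.157 between genotypes. The counts of calls in this section stand without the share of all genes unless it is given beside them. They are not read as a result about these genes. Among the genes followed through every setting, that scale turned the direction between subsets of Ndufs1 (-0.63), Sdha (-0.45) and Sdhd (-0.58) in WT mice and of Cox5b (-0.69), Ndufa7 (-0.015), Ndufb9 (-0.013) and Sdha (-0.55) in Nlrp3-/- mice, and between genotypes of Atp5a1 and Uqcrfs1 in M-MDSCs (0.07 and 0.05) and Cycs and Ndufs1 in G-MDSCs (0.02 and 0.04). Upper-quartile factors gave medians of -0.95 and -0.794 between subsets and 1 gene, Cox8a, higher in G-MDSCs than M-MDSCs of Nlrp3-/- mice. Between genotypes they called 4 genes higher in Nlrp3-/- M-MDSCs and 12 in Nlrp3-/- G-MDSCs. The medians of all genes with these factors were -0.267 and -0.276 between subsets and 0.0854 and 0.0961 between genotypes. With GC and length offsets the genotype medians were 0.0773 in M-MDSCs and 0.168 in G-MDSCs, with 1 gene higher in Nlrp3-/- G-MDSCs and 1, Ndufb9, higher in WT G-MDSCs than M-MDSCs. The 16-library model called 16 genes higher and 1 lower (Cox6b2) in Nlrp3-/- G-MDSCs, and no filter added 1 lower call (Sdhd).

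WT and Nlrp3-/- libraries of the same number come from different mice. Their deviations had a mean r of -0.157 in M-MDSCs and -0.152 in G-MDSCs, and a replicate block over them left 1 higher call in M-MDSCs (Uqcrc1) and 4 in G-MDSCs (Ndufa7, Ndufa8, Ndufb9 and Uqcrq). Higher calls over all genes also fell with this block, from 351 to 67 of 9986 in M-MDSCs and from 436 to 199 of 9273 in G-MDSCs. GC and length offsets with the replicate block gave 0 and 1 higher calls (medians 0.0732 and 0.198), 1 higher call between subsets in WT, and a median of -0.478 between subsets in Nlrp3-/- mice. Between subsets, where the block is the mouse, it changed only the calls named with those results.

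Without 1 library at a time, 1 to 6 genes were called higher in Nlrp3-/- M-MDSCs and 0 to 1 lower, 4 to 13 higher in Nlrp3-/- G-MDSCs and 0 to 2 lower, 37 to 49 lower and 0 to 1 higher between WT subsets, and 36 to 42 lower and 2 to 3 higher between Nlrp3-/- subsets (medians 0.194 to 0.332, 0.343 to 0.453, -0.823 to -0.664 and -0.763 to -0.559). Without WT M-MDSC replicate 2, 3 or 4 or Nlrp3-/- M-MDSC replicate 4, Uqcrc1 was the 1 call in M-MDSCs. Without Nlrp3-/- M-MDSC replicate 1 there were 6, and Sdhd ran from -4.02 to 0.41. Without WT G-MDSC replicate 4 there were 4 calls (Ndufa7, Ndufs7, Ndufv3 and Uqcrq) and without WT G-MDSC replicate 3 there were 13. Sdhd was called lower there without WT G-MDSC replicate 2 or Nlrp3-/- G-MDSC replicate 1, and Cox6b2 and Ndufa12 without Nlrp3-/- G-MDSC replicate 3. The cause of these changes was not tested.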
